A study of Mus musculus with 8 samples.

Results

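The 9 genes described here encode enzymes of non-essential amino acid synthesis, and were selected by symbol as the asparagine, proline, cysteine and aspartate synthesis enzymes among the 45777 genes of the table: Asns, Aldh18a1, Pycr1, Pycrl, Cbs, Cth, Got1, Got2 and Gpt2. All 9 passed the low-count filter. The rule is a list of symbols, drawn up with earlier results of these data known. RNA sequencing was performed on mouse colonic organoids, epithelial cultures grown in a gel matrix from crypts of male mice aged 9 weeks. In the knockout line (Reg3aΔIEC, here KO, 4 libraries, replicates 5 to 8), loxP sites placed around exons 2 to 4 of Reg3a were combined with Cre recombinase driven by the Villin promoter, which is active in intestinal epithelium. In the other line (Reg3afl/fl, labelled WT and called WT here, 4 libraries, replicates 13 to 16) the labels list the same floxed alleles and no Cre. The strain named in the labels is C57BL/6J, and all organoids were collected 3 days after passage, after at most 15 passages, with no added treatment. Reg3a encodes a secreted C-type lectin.

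Non-essential amino acids are built from a few carbon skeletons. Glutamate supplies proline, oxaloacetate supplies aspartate and through it asparagine, pyruvate supplies alanine, and homocysteine and serine together supply cysteine. Several of these enzymes belong to the genes that the transcription factor ATF4 is known to induce when amino acids run short or proteins misfold, Asns being the best-known example. In intestinal epithelium glutamine and glutamate are major fuels and feed several of these routes.

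The labels disagree on replication. One statement gives 1 mouse per genotype plated in 4 wells, and another gives 3 mice per genotype in technical triplicate, so every p-value below measures a spread between libraries that may be technical only, and genotype cannot be told apart from mouse or organoid line. Library totals were 42370611 to 48533942 counts in KO and 37182098 to 49256171 in WT. The targeted gene could not check the labels, since Reg3a had 0 counts in each of the 8 libraries. In bulk RNA, fewer cells of a type and less RNA per cell cannot be told apart. Levels are given in CPM, the counts scaled to library size with TMM factors, and errors are the SD of 4 libraries unless an SE is named. A gene is called higher or lower in KO when the edgeR quasi-likelihood test gave a Benjamini-Hochberg adjusted p under 0.05 over all 14945 genes tested.

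Of the 9 enzyme genes, 4 fell in KO (Asns, Aldh18a1, Cbs and Gpt2), 1 rose (Cth) and 4 were not called (Pycr1, Pycrl, Got1 and Got2). Over all genes tested, 15.9% were called in either direction, 8.26% lower and 7.63% higher. The same 5 genes had KO and WT libraries that did not overlap, against 20.2% of all genes tested (10.3% with KO wholly lower and 9.91% with KO wholly higher). The log2 fold change, KO over WT, was negative for 7 of the 9 and had a median of -0.216, beside -0.00122 over all genes tested. The changes were moderate, and of the 5 called genes Cbs fell by 34.1%, Asns fell by 31.1%, Aldh18a1 fell by 25.6%, Gpt2 fell by 16.4% and Cth rose by 33.9%.

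**Figure D1:**
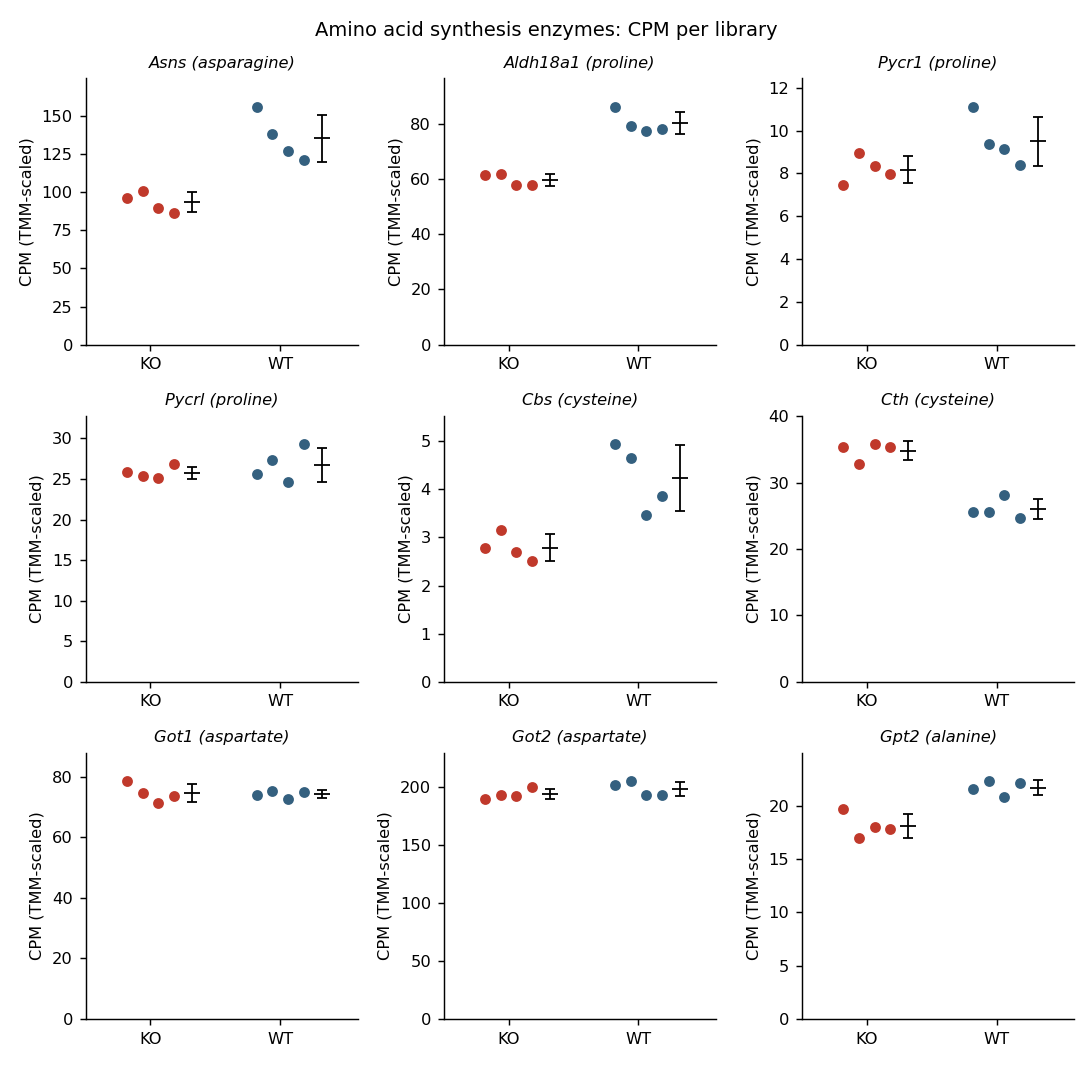
Level of each of the 9 enzyme genes in every library, in TMM-scaled CPM on linear axes that start at 0, with KO left of WT, a point for each library and, beside the points, the mean of 4 with its SD. The KO points lie wholly below the WT points for Asns, Aldh18a1, Cbs and Gpt2, wholly above them for Cth, and overlap them for Pycr1, Pycrl, Got1 and Got2.

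Asparagine synthesis. Asns (NCBI Gene ID 27053, chromosome 6, 7675165 to 7693209, GRCm38) encodes asparagine synthetase, which transfers the amide nitrogen of glutamine to aspartate. KO replicates 5, 6, 7 and 8 held 96.4, 101, 89.7 and 86.7 CPM, against 156, 138, 127 and 121 CPM in WT replicates 13, 14, 15 and 16. Every KO library lay below every WT library, and WT replicate 13 was the highest of all. The means were 93.4 ± 6.52 CPM in KO and 136 ± 15.5 CPM in WT, a log2 fold change of -0.54 ± 0.074 (SE; 95% interval -0.70 to -0.38; edgeR adjusted p = 0.000307), or 0.689 times the WT level.

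Because Asns is the member whose control by ATF4 is best known, its promoter is shown. The window, taken from RefSeq on GRCm38.p6 (chr6:7693160-7693459, minus strand, 5′ to 3′), runs from 250 bases before to 50 after the annotated start. Capitals mark TGATGAAAC, whose first base lies 23 bases before the start, and GTTACA, which begins 3 bases before it and comes 11 bases after TGATGAAAC ends.
Asns promoter: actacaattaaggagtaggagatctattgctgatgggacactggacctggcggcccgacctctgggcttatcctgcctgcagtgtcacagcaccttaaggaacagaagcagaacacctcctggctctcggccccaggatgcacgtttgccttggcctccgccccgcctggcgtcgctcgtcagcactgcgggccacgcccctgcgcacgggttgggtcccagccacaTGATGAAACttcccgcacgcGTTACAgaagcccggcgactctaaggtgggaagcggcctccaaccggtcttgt
In the human ASNS promoter such a pair is known as the nutrient-sensing response elements, the first of them a C/EBP-ATF composite site that binds ATF4. Among 32851 RefSeq promoter windows of this length, TGATGAAAC on either strand was present in 81 (0.247%) and GTTACA in 2709 (8.25%). The pair with this spacing was present in 1 window, that of Asns; the pair was looked for after the Asns window had been seen.

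A wider search used the composite motif TGATGNAA on both strands, which includes the first element of the Asns pair. RefSeq windows were matched for 7 of the 9 genes, all except Cth and Pycrl. The motif was present in 3 of those 7, beside 1304 of all 32851 windows (3.97%) and 2.26% of the 14136 windows of genes tested here. These are the 3 matches, each read in the direction of the motif with 16 bases on either side and the motif in capitals. The first 2 are on the gene's own strand, which is the minus strand for both (chr6:7693209-7693248 and chr11:120643828-120643867), and the Got1 match is on the plus strand, opposite the gene (chr19:43524684-43524723).
Asns: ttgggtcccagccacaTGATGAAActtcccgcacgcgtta
Pycr1: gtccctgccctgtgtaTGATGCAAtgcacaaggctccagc
Got1: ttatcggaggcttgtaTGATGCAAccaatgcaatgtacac
The Pycr1 and Got1 matches both spell TGATGCAA, starting 103 and 102 bases before the gene's start when the gene strand is read, whereas the Asns match spells TGATGAAA. The windows of Aldh18a1, Cbs, Got2 and Gpt2 did not hold these letters. Of the 3 genes with a match, Asns was called lower in KO, and Pycr1 and Got1 were not called; no relation between the motif and the calls was tested.

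Proline synthesis. Aldh18a1 (chromosome 19, 40550257 to 40588463) encodes pyrroline-5-carboxylate synthase, the mitochondrial enzyme that commits glutamate to proline and ornithine. Its level was 61.3, 61.7, 57.6 and 57.9 CPM in KO replicates 5 to 8, against 86.0, 79.2, 77.2 and 78.1 CPM in WT replicates 13 to 16. The genotypes did not overlap, and libraries within each genotype lay close together. Aldh18a1 averaged 59.6 ± 2.15 CPM in KO and 80.1 ± 3.97 CPM in WT, with a log2 fold change of -0.43 ± 0.048 (SE; 95% interval -0.53 to -0.32; edgeR adjusted p = 7.86e-05). A processed pseudogene, Gm15801, lies within an intron of Aldh18a1 on the same strand and shares 0 exon bases with it in GENCODE M21; its level was 50.5 ± 1.65 CPM in KO and 52.7 ± 5.17 CPM in WT (edgeR adjusted p = 0.583).

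The next step, reduction of pyrroline-5-carboxylate to proline, is carried out by mitochondrial Pycr1 (chromosome 11, 120638998 to 120643748) and cytosolic Pycrl (chromosome 15, 75916463 to 75921560), the gene now also called Pycr3. Pycr1 held 7.45, 8.97, 8.33 and 7.96 CPM in KO replicates 5 to 8, against 11.1, 9.35, 9.15 and 8.39 CPM in WT replicates 13 to 16. KO replicate 6 lay above WT replicate 16, so the genotypes overlapped. The log2 fold change of Pycr1 was -0.22 ± 0.095 (SE), with an unadjusted p of 0.0405 and an edgeR adjusted p = 0.152; the 95% interval, not adjusted for the number of genes, ran from -0.42 to -0.011.
Pycrl held 25.8, 25.4, 25.1 and 26.8 CPM in KO replicates 5 to 8, against 25.6, 27.4, 24.6 and 29.3 CPM in WT replicates 13 to 16. The ranges lay across each other, and the log2 fold change was -0.05 ± 0.060 (SE; 95% interval -0.18 to 0.078; edgeR adjusted p = 0.641).

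Cysteine synthesis. Cbs and Cth encode consecutive enzymes of transsulfuration, and they were the pair that moved in opposite directions. Cbs (cystathionine beta-synthase, chromosome 17, 31612623 to 31637233) joins homocysteine and serine to cystathionine. Cbs was the least abundant of the 9 genes, with 116 to 230 counts per library. It stood at 2.79, 3.16, 2.70 and 2.50 CPM in KO replicates 5 to 8, against 4.94, 4.65, 3.47 and 3.86 CPM in WT replicates 13 to 16. KO replicate 6 and WT replicate 15 came nearest to each other, and no libraries overlapped. Cbs averaged 2.79 ± 0.276 CPM in KO and 4.23 ± 0.681 CPM in WT. The log2 fold change of Cbs was -0.60 ± 0.14 (SE; 95% interval -0.89 to -0.31; edgeR adjusted p = 0.00835), the widest interval of the 9.

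Cth (cystathionine gamma-lyase, chromosome 3, 157894248 to 157925081) splits cystathionine to release cysteine. It held 35.4, 32.8, 35.8 and 35.3 CPM in KO replicates 5 to 8, against 25.6, 25.6, 28.2 and 24.6 CPM in WT replicates 13 to 16. Here every KO library lay above every WT library. Cth averaged 34.8 ± 1.39 CPM in KO and 26.0 ± 1.53 CPM in WT, a log2 fold change of 0.42 ± 0.055 (SE; 95% interval 0.30 to 0.54; edgeR adjusted p = 0.000225), or 1.34 times the WT level. In the authors' TPM, which are scaled for length, the ratio of Cth to Cbs was 18.1, 14.3, 18.3 and 20.1 in KO replicates 5 to 8, against 7.43, 7.57, 11.3 and 8.83 in WT replicates 13 to 16.

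Aspartate and alanine synthesis. Got1 (chromosome 19, 43499752 to 43524605) and Got2 (chromosome 8, 95864133 to 95888401) encode the cytosolic and mitochondrial aspartate aminotransferases, which exchange an amino group between glutamate and oxaloacetate. Both were within the spread between libraries. Got1 held 78.6, 74.8, 71.5 and 73.7 CPM in KO replicates 5 to 8, against 74.0, 75.5, 72.8 and 75.2 CPM in WT replicates 13 to 16, and KO held both its highest and its lowest library. The log2 fold change of Got1 was 0.0042 ± 0.043 (SE; 95% interval -0.089 to 0.097; edgeR adjusted p = 0.967), and its sign turned negative without KO replicate 5 (-0.021) or WT replicate 15 (-0.0061).
Got2, the most abundant of the 9, held 190, 193, 192 and 200 CPM in KO replicates 5 to 8, against 202, 205, 193 and 193 CPM in WT replicates 13 to 16. These ranges overlapped, and the log2 fold change was -0.035 ± 0.039 (SE; 95% interval -0.12 to 0.048; edgeR adjusted p = 0.613). Reads can be shared with the pseudogene Got2-ps1, which had 8.00 ± 0.504 CPM in KO and 8.01 ± 0.703 CPM in WT.

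Gpt2 (chromosome 8, 85492576 to 85528902) encodes the mitochondrial alanine aminotransferase, so it makes alanine from pyruvate rather than any of the 4 amino acids after which the genes were grouped. It held 19.7, 17.0, 18 and 17.8 CPM in KO replicates 5 to 8, against 21.6, 22.3, 20.8 and 22.1 CPM in WT replicates 13 to 16. The genotypes did not overlap, although KO replicate 5 came close to WT replicate 15. The mean was 18.1 ± 1.13 CPM in KO and 21.7 ± 0.631 CPM in WT, a log2 fold change of -0.26 ± 0.059 (SE; 95% interval -0.38 to -0.13; edgeR adjusted p = 0.00877), the smallest of the 5 called. Its cytosolic counterpart Gpt was higher in KO, at 17.7, 18.1, 17.6 and 20.8 CPM in replicates 5 to 8, against 11.7, 14.4, 13.5 and 17.8 CPM in WT replicates 13 to 16. Those libraries overlapped, the log2 fold change of Gpt was 0.37 ± 0.10 (SE, edgeR adjusted p = 0.0277), and the call was lost without KO replicate 5, KO replicate 8, WT replicate 13 or WT replicate 15 (edgeR adjusted p = 0.0516 to 0.0993).

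**Figure D2:**
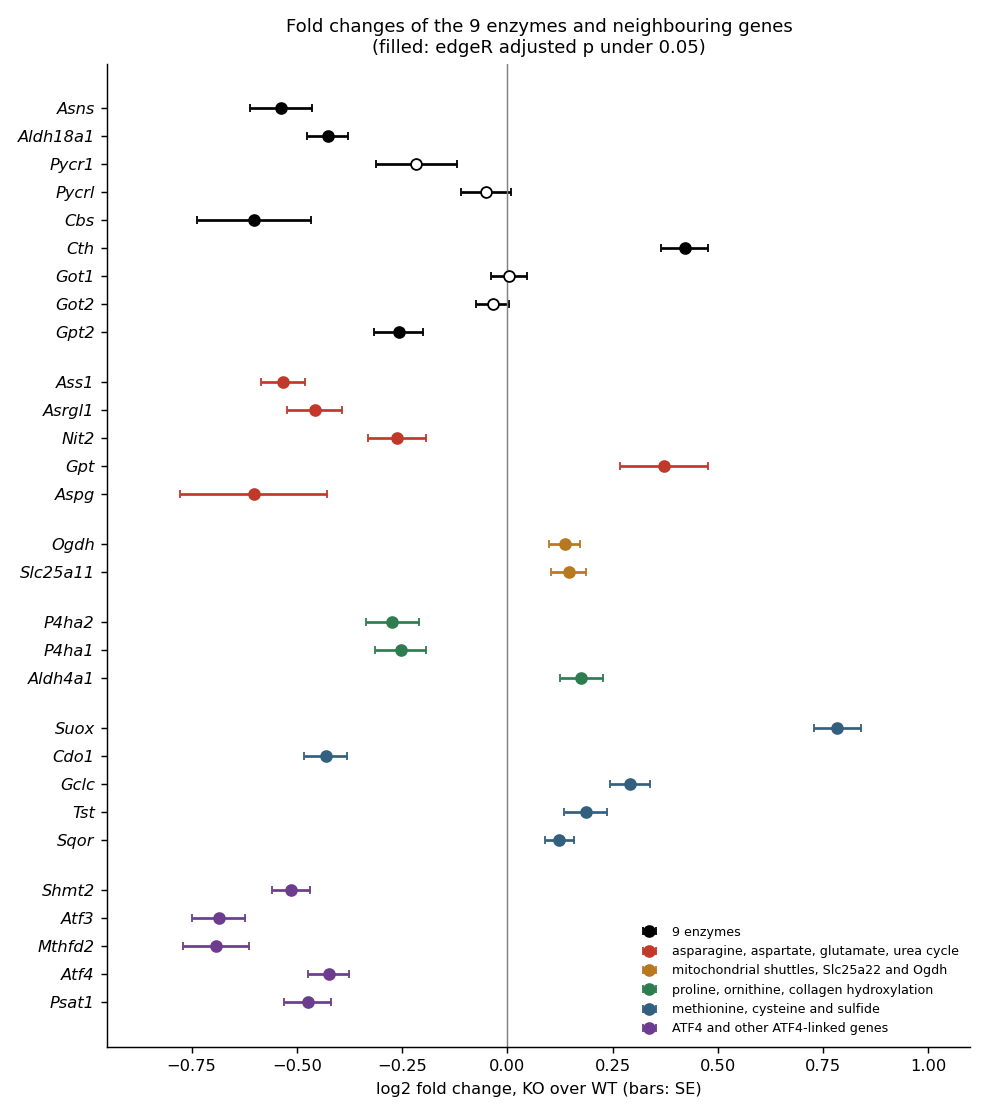
Fitted log2 fold changes, KO over WT, of the 9 enzyme genes and of up to 5 genes with the smallest adjusted p from each of 5 lists of related genes; bars are the SE and filled points had an edgeR adjusted p under 0.05. Of the 9, Asns, Aldh18a1, Cbs and Gpt2 lie left of 0 and Cth lies right of it, and the 5 ATF4-linked genes shown lie between -0.69 and -0.42.

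Length-scaled levels put the 9 genes in a set order. By mean TPM in KO the order was Got2 (162), Asns (95.3), Got1 (72.5), Cth (38.8), Pycrl (38.1), Aldh18a1 (33.9), Pycr1 (8.57), Gpt2 (7.28) and Cbs (2.21). In WT the order was Got2 (163), Asns (135), Got1 (70.7), Aldh18a1 (44.7), Pycrl (38.6), Cth (28.4), Pycr1 (9.66), Gpt2 (8.5) and Cbs (3.30). Aldh18a1 and Cth thus exchanged the fourth and the sixth place between the genotypes, while the other 7 genes kept theirs. Neighbours whose libraries overlapped were Cth and Pycrl in KO, and Pycr1 and Gpt2 in both genotypes. The 9 genes together made up 454 to 464 TPM in KO libraries and 478 to 528 TPM in WT libraries, of which Asns took 19.4% to 22.2% in KO and 25% to 29.5% in WT.

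**Figure D3:**
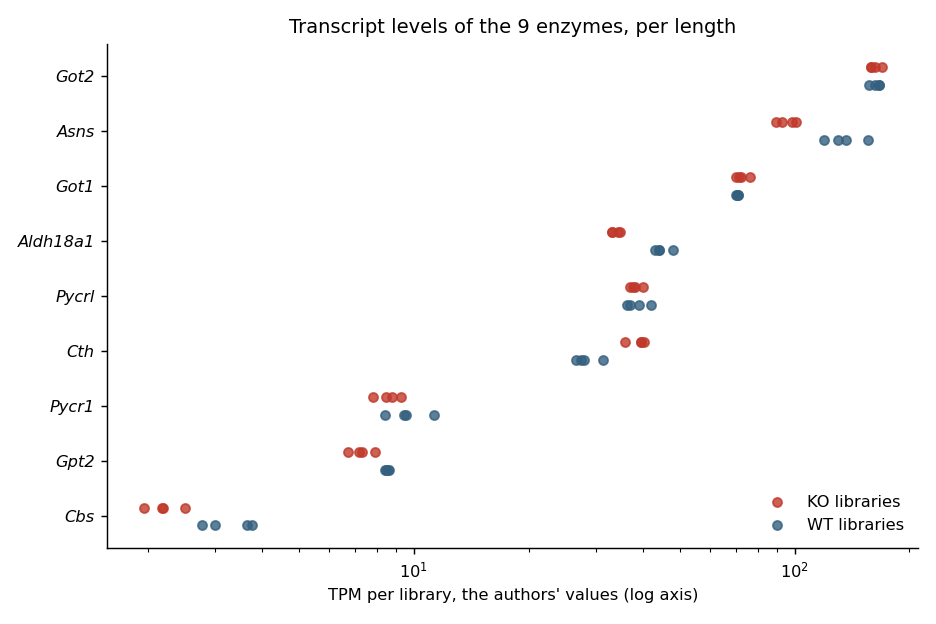
Length-scaled level of the 9 enzyme genes in the authors' TPM on a log axis, with KO drawn above WT for each gene and 1 point for each library. Got2 is highest and Cbs lowest in both genotypes, and Aldh18a1 and Cth exchange places between them.

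The members also varied among libraries of 1 genotype. WT replicate 13 was the highest WT library for Asns, Aldh18a1, Pycr1 and Cbs, and KO replicate 6 was the highest KO library for the same 4 genes. KO replicate 6 was in addition the lowest KO library for Cth and Gpt2. Cbs had the widest spread, with a coefficient of variation of 9.90% in KO and 16.1% in WT, and Got2 among the narrowest, with 2.23% in KO and 3.07% in WT. The 5 calls held without each of the 8 libraries in turn, including KO replicate 6 and WT replicate 13.

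**Figure D4:**
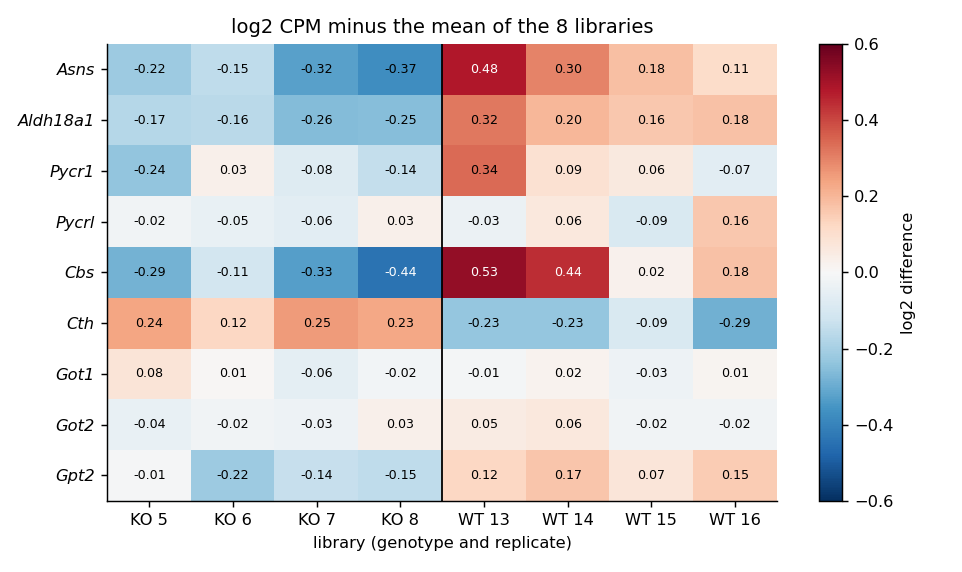
Level of each of the 9 enzyme genes in each library as log2 CPM minus that gene's mean over the 8 libraries, with KO columns left of WT columns. Asns, Aldh18a1, Cbs and Gpt2 are below their mean in all 4 KO libraries and above it in all 4 WT libraries, and Cth shows the reverse. Gpt2 is only just below its mean in KO replicate 5 (-0.0066).

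For each called member, the genes with the most similar pattern were those with the smallest root mean square (RMS) difference in centred log2 CPM over the 8 libraries, among 9836 genes searched; since the pattern contains the difference between genotypes, the direction of these genes is given by the selection. For Asns they were Fam174b (RMS difference 0.070), Cnn3, an actin-binding calponin (0.070), and Psat1, the phosphoserine aminotransferase of serine synthesis (0.074). For Aldh18a1 they were Atf4 itself (0.024), Yars, the cytosolic tyrosyl-tRNA synthetase (0.027), and Csrp2, a LIM-domain protein (0.028). Atf4 averaged 145 ± 7.28 CPM in KO and 194 ± 10.2 CPM in WT. Yars averaged 77.3 CPM in KO and 104 CPM in WT.
For Cbs the nearest of the genes searched were less alike: the cytokine gene Tnf (0.085), Fam174b (0.094) and Ly6m (0.10). For Cth they were Tlr1, a Toll-like receptor gene (0.026), Reep3 (0.030) and Mmut, the methylmalonyl-CoA mutase (0.042). For Gpt2 they were Ccnf, cyclin F (0.039), Tspan14, a tetraspanin (0.042), and Gsta3, a glutathione S-transferase (0.047).

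Among 14 further genes of asparagine, aspartate, glutamate and urea cycle metabolism, 3 rose and 5 fell in KO, and the median log2 fold change was -0.064. Those were 21.4% and 35.7% of the list, beside 7.63% higher and 8.26% lower over all genes tested. All 3 named genes that use or break down asparagine or its relatives were lower in KO. Asrgl1, an asparaginase, averaged 9.17 ± 0.336 CPM in KO and 12.6 ± 0.374 CPM in WT (log2 fold change -0.46, edgeR adjusted p = 0.000436). Aspg, which also has an asparaginase domain, averaged 2.01 ± 0.500 CPM in KO and 3.06 ± 0.402 CPM in WT (edgeR adjusted p = 0.0323, and 0.0525 to 0.0974 when KO replicate 5, 6 or 7 or WT replicate 14 or 16 was left out). Nit2, an omega-amidase of the asparagine and glutamine transamination routes, ranged over 11.4 to 13.2 CPM in KO and 14.2 to 15.8 CPM in WT (edgeR adjusted p = 0.021, and 0.0695 to 0.0747 without KO replicate 5 or 8 or WT replicate 13). Ass1, which condenses aspartate with citrulline, had the smallest adjusted p of this list, with 51.7 ± 0.926 CPM in KO and 74.9 ± 4.99 CPM in WT (log2 fold change -0.53 ± 0.052, edgeR adjusted p = 2.37e-05). Without each library in turn, 0 to 2 genes of this list were called higher and 2 to 5 lower. Nags, the N-acetylglutamate synthase, named here after its values were seen, had the largest log2 fold change of the list (1.20 ± 0.37, SE; edgeR adjusted p = 0.0407) on 11 to 28 counts in KO libraries and 8 to 9 in WT libraries. Its call was lost without any 1 library other than KO replicate 7 (edgeR adjusted p = 0.0665 to 0.138). With all libraries kept, the Nags call was also lost under DESeq2 (adjusted p = 0.053) and limma-voom (adjusted p = 0.059). The same held without the low-count filter (edgeR adjusted p = 0.0712).

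A further list of 9 genes joined the malate-aspartate shuttle, in which Got1 and Got2 work, with the mitochondrial glutamate carrier Slc25a22, the glycerol-phosphate shuttle (Gpd1 and Gpd2) and Ogdh, a subunit of the oxoglutarate dehydrogenase of the citric acid cycle. In this mixed list 2 genes, 1 of the malate-aspartate shuttle and Ogdh, were called higher and 0 lower by edgeR, and the median log2 fold change was 0.083. The share called higher was 22.2%, beside 7.63% of all genes tested, of which 8.26% were called lower. At an unadjusted p under 0.05, 4 were higher and 0 lower, and DESeq2 and limma-voom also called 0 lower. Slc25a11, the mitochondrial oxoglutarate carrier, averaged 101 ± 0.638 CPM in KO and 91.4 ± 3.5 CPM in WT (log2 fold change 0.15, edgeR adjusted p = 0.0287). Ogdh averaged 280 ± 5.68 CPM in KO and 255 ± 6.43 CPM in WT (log2 fold change 0.14, edgeR adjusted p = 0.0228). Neither call held throughout: the edgeR adjusted p of Slc25a11 was 0.0566 to 0.0882 without KO replicate 5, 6, 7 or 8 or WT replicate 13, and that of Ogdh was 0.0528 to 0.0825 without KO replicate 5, 7 or 8 or WT replicate 13.

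Around proline, 9 of 12 listed genes could be tested, of which 1 rose and 2 fell, and the median of their log2 fold changes was -0.039. These were 11.1% and 22.2% of those tested, beside 7.63% higher and 8.26% lower over all genes tested. The genes that fell were P4ha1 and P4ha2, catalytic subunits of the prolyl 4-hydroxylase that acts on collagen. P4ha1 averaged 179 ± 13.0 CPM in KO and 213 ± 15.6 CPM in WT (log2 fold change -0.25, edgeR adjusted p = 0.0121), and P4ha2 averaged 71.2 ± 4.30 CPM in KO and 86.0 ± 6.99 CPM in WT (log2 fold change -0.27, edgeR adjusted p = 0.00938). Aldh4a1, which returns pyrroline-5-carboxylate to glutamate, averaged 39.3 ± 2.12 CPM in KO and 34.8 ± 0.988 CPM in WT (edgeR adjusted p = 0.0332, and 0.0544 to 0.111 when KO replicate 5, 6 or 8 or WT replicate 13 or 14 was left out).

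Around cysteine, 16 of 18 listed genes of the methionine cycle, transsulfuration, glutathione and sulfide routes were tested, of which 4 rose and 2 fell, and the median of their log2 fold changes was 0.036. These were 25% and 12.5% of those tested, beside 7.63% higher and 8.26% lower over all genes tested. Suox, the sulfite oxidase, showed the largest change of this list: 45.5, 43.8, 46.6 and 51.2 CPM in KO replicates 5 to 8, against 26.6, 27.9, 26.2 and 27.9 CPM in WT replicates 13 to 16. Its genotypes were far apart, and the log2 fold change was 0.78 ± 0.056 (SE; quasi-likelihood test of edgeR, adjusted p = 2.4e-06). Gclc, the catalytic subunit of glutamate-cysteine ligase in glutathione synthesis, rose to 442 ± 24.6 CPM in KO, against 361 ± 15.2 CPM in WT (log2 fold change 0.29, edgeR adjusted p = 0.000892). Cdo1, the cysteine dioxygenase that opens cysteine breakdown, fell to 82.6 ± 3.90 CPM in KO, against 111 ± 6.05 CPM in WT (log2 fold change -0.43, edgeR adjusted p = 9.29e-05).
Tst and Sqor, of mitochondrial sulfide oxidation, differed less. Tst averaged 70.0 ± 3.40 CPM in KO and 61.5 ± 3.19 CPM in WT (edgeR adjusted p = 0.0264, and 0.0759 to 0.0967 without KO replicate 7 or 8 or WT replicate 13). Sqor averaged 393 ± 3.07 CPM in KO and 361 ± 7.82 CPM in WT (edgeR adjusted p = 0.0266, and 0.0632 to 0.0809 without KO replicate 5, 6, 7 or 8 or WT replicate 13).

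The list of ATF4 and 25 other genes linked to it, which leaves out the 9 enzymes, had 17 lower and 0 higher among 26 tested by edgeR, and 22 of 26 log2 fold changes were negative, with a median of -0.368. The share called lower was 65.4%, beside 8.26% of all genes tested, of which 7.63% were called higher. At an unadjusted p under 0.05, 19 were lower and 2 higher; limma-voom called 0 higher and DESeq2 1. Without each library in turn, 15 to 18 were called lower and 0 to 1 higher. Atf4 fell by 0.42 ± 0.049 on the log2 scale (SE, edgeR adjusted p = 8.95e-05). Atf3, a stress-induced transcription factor, averaged 33.5 ± 3.23 CPM in KO and 54.0 ± 1.20 CPM in WT (log2 fold change -0.69, edgeR adjusted p = 1.49e-05). Mthfd2, of mitochondrial folate metabolism, averaged 26.3 ± 3.40 CPM in KO and 42.4 ± 2.41 CPM in WT (log2 fold change -0.69, edgeR adjusted p = 8.61e-05). Shmt2, the mitochondrial serine hydroxymethyltransferase, averaged 119 ± 2.16 CPM in KO and 170 ± 9.41 CPM in WT (log2 fold change -0.51, edgeR adjusted p = 1.09e-05). Psat1 averaged 91.0 ± 4.15 CPM in KO and 126 ± 9.40 CPM in WT (log2 fold change -0.47, edgeR adjusted p = 9.29e-05). The composite motif TGATGNAA was present in 7 of the 26 promoter windows matched to this list. These are counts of windows and not of genes, since Vldlr had more than 1 window. It was present in 3.97% of all windows and 2.26% of the windows of genes tested.

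**Figure D5:**
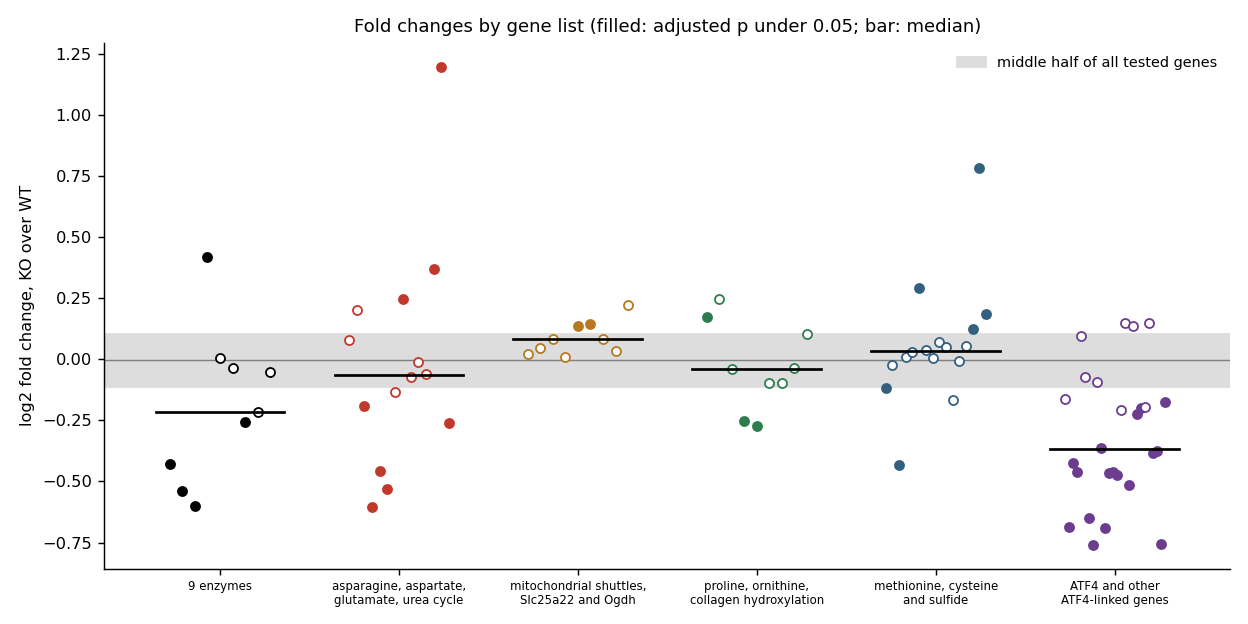
Fitted log2 fold changes, KO over WT, of every tested gene of the 9 enzymes and of 5 lists of related genes; filled points had an edgeR adjusted p under 0.05, black bars are medians and the grey band holds the middle 50% of all genes tested. The median of the ATF4-linked list is -0.368 and that of the 9 enzymes is -0.216, while the other 4 medians lie between -0.064 and 0.083.

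Cell type markers moved between the genotypes as well. Beside the counts that follow, 7.63% of all genes tested were called higher and 8.26% lower. Of 9 epithelial markers, all tested, 3 rose, among them Cdx2 (log2 fold change 0.33) and Vil1 (0.25), and 1 was lower at an unadjusted p under 0.05 only, and their summed level was 10600 to 11300 CPM in KO and 10200 to 11000 CPM in WT. Of 10 proliferation markers 9 fell, among them Aurkb (-0.55) and Bub1b (-0.38), with summed levels of 1130 to 1190 CPM in KO and 1350 to 1540 CPM in WT. Of 10 absorptive cell markers 7 rose, among them Car1 (0.96) and Krt20 (0.76), and 1 fell, with summed levels of 7330 to 7610 CPM in KO and 5200 to 5750 CPM in WT. The 1 that fell, Aqp8, had the largest change of the 10 by size (-1.28, edgeR adjusted p = 0.0314), and its libraries overlapped. Of 10 goblet cell markers 6 fell, among them Tff3 (-0.88) and Agr2 (-0.58), with summed levels of 119 to 149 CPM in KO and 165 to 222 CPM in WT. Of 8 enteroendocrine markers 7 were tested and 3 fell, among them Gcg (-1.81) and Pyy (-0.87), with summed levels of 18.5 to 27.2 CPM in KO and 27.4 to 39.3 CPM in WT. Of 6 crypt stem cell markers 5 were tested and 3 fell, among them Lgr5 (-0.49) and Smoc2 (-1.06), with summed levels of 252 to 266 CPM in KO and 269 to 275 CPM in WT. The part of these shifts in the differences of the 9 enzyme genes was not tested.

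Markers of immune, stromal and endothelial cells were near the limit of detection, with Cd3e and Col1a2 at 0 counts in all 8 libraries, a count of 0 allowing up to 0.0609 to 0.0807 CPM. Apart from Cd68, the summed level of the other 11 such markers was 0.560 to 11.6 CPM in KO and 0.599 to 0.809 CPM in WT. Of the highest KO value, Lyz2 made up 9.90 CPM, in KO replicate 6, with 0 counts in the other 7 libraries. KO replicate 6 was also the highest library for Vim (34 counts), Pecam1 (20), Col1a1 (10) and Col3a1 (5). It was not the highest for Ptprc, Pdgfra, Acta2 or Des. Cd68, a lysosomal glycoprotein, averaged 31.0 ± 2.47 CPM in KO and 38.4 ± 5.56 CPM in WT (edgeR adjusted p = 0.0399), with libraries that overlapped. That call was lost under 9 of 16 alternative settings. The 5 calls among the enzyme genes held without KO replicate 6.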

How the data were processed

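Gene expression was taken from 1 table with 4 KO and 4 WT libraries, grouped by the genotype labels. Per the labels' protocols, stranded mRNA libraries were made from 1 µg of RNA with an integrity number above 7.0. The authors deposited raw counts, 1 whole number for each gene in each library. Per the submitters' processing notes, the authors used TopHat2, TopHat, Bowtie2, HTSeq and the build GRCm38; versions, roles and whether strand was used in counting are not given in the sources used here; overlapping genes are therefore uncertain. In each library more genes had 2 counts (673 to 772) than 1 count (548 to 622), so both mates of a pair may have been counted, and the limit for a count of 0 would then double. The authors' deposited FPKM and TPM values, scaled for length (TPM summed to 999972 to 999988 per library), were only described.

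After the filterByExpr filter and TMM scaling, KO was compared with WT in edgeR 4.0.16 (R 4.3.3) by its quasi-likelihood test; p was adjusted over 14945 genes by Benjamini-Hochberg and the threshold was 0.05. Precision is set by totals of 37182098 to 49256171 counts; a count of 0 allows up to 3 counts, which covers counting error only. No libraries held identical values, and pairs of libraries differed by more than sampling noise (chi-square per degree of freedom 4.94 to 10.7 in KO and 11.1 to 24.9 in WT). Promoter windows came from RefSeq on GRCm38.p6 and intron positions from GENCODE M21. All 144 list entries were matched, 1 of them through a synonym. Alternatives were DESeq2 size factors, upper quartile and library totals, the DESeq2 1.42.0 Wald test, limma-voom (limma 3.58.1), no filter and a stricter one (a mean of at least 5 CPM, and 1 CPM or more in 4 libraries), an adjusted p of 0.01, FPKM for TPM, other motifs, and leaving out each library.

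The members and lists were chosen with earlier results of these data known. Named genes are all 9 members, and up to 5 genes per pathway list and 2 per marker list with the smallest adjusted p under 0.05. For each called member, the 3 genes with the most similar pattern are also named. These had a mean of at least 5 CPM and lay outside the 9, with predicted genes, clones and pseudogenes left out. Gm15801, Got2-ps1, Lyz2, Nags, Aqp8, Axin2, Sox9, Vim, Pecam1, Col1a1, Col3a1, Ptprc, Pdgfra, Acta2 and Des were named after their values were seen. Python 3.11.15 with pandas 2.3.3, numpy 2.4.6 and matplotlib 3.10.9 served for tables and plots.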

Additional observations from a re-analysis of the deposited data

Results flagged for a closer look

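In 84 sets of 4 libraries (the named genes in KO and in WT), 6 had a library whose gap to the nearest other was larger than Dixon's 95% limit; chance flags about 1 in 20 such groups, and none of the 6 was one of the 9 enzyme genes. Nit2 stood at 15.8 CPM in WT replicate 13, against 14.2 to 14.4 CPM in the other WT libraries. Psat1 stood at 140 CPM in the same library, against 120 to 123 CPM in the other WT libraries. Gpt stood at 20.8 CPM in KO replicate 8, against 17.6 to 18.1 CPM in the other KO libraries. Gclc stood at 479 CPM in KO replicate 5, against 428 to 434 CPM in the other KO libraries. Bub1b stood at 59.7 CPM in KO replicate 7, against 62.2 to 62.5 CPM in the other KO libraries. Smoc2 stood at 1.87 CPM in WT replicate 15, against at most 1.33 CPM in the other WT libraries.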

How the results depend on the processing

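The direction and the call of Asns, Aldh18a1, Cth and Gpt2 held under all 16 alternatives, with largest edgeR, DESeq2 or limma adjusted p-values of 0.00222, 0.000718, 0.00169 and 0.0362. Cbs held under the 15 in which it was tested, with a largest adjusted p of 0.0359; under the stricter filter it was not tested and 3 members were lower. Leaving out each library, 1 member was higher and 4 were lower every time. Pycr1, Pycrl and Got2 were not called under any alternative, and Got1 was not called either but its log2 fold change ran over -0.0206 (without KO replicate 5), -0.0061 (without WT replicate 15) and up to 0.0244 (without KO replicate 7). Over all genes, leaving out each library gave 696 to 1386 higher and 724 to 1404 lower, the fewest of both when KO replicate 8 was omitted; omitting KO replicate 5 left 757 higher, and omitting WT replicate 13 left 808 lower; at an adjusted p of 0.01 there were 562 higher and 597 lower. Of the 16 neighbouring pairs in the order of levels, 13 did not overlap in TPM and 12 in FPKM; the order was the same. The stricter motif TGATGCAA was present in 2 of 7 member windows and the shorter TGATG in 5 of 7, beside 0.895% and 39.3% of all windows. The cause of these differences was not tested. No paired analysis was possible because the genotypes share no library numbers. Depth limits Cbs most, and replication may be technical.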
